A study of Mus musculus with 8 samples.

Results

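The genes described here are 10 genes of matricellular proteins, namely the thrombospondins *Thbs1*, *Thbs2*, *Thbs3* and *Thbs4*, the periostin gene *Postn*, the tenascins *Tnc* and *Tnxb*, and *Tgfbi*, *Sparc* and *Sparcl1*. They are 10 of the 24091 genes in the deposited count table, and all 10 were among the 15233 genes with enough counts to be tested. They were chosen by gene name after the contrast of mutant and control in these same counts had been seen, so every difference between the genotypes given for them is a description of these libraries and supports nothing further.

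Matricellular proteins are secreted into the extracellular matrix (ECM) without forming its fibres or sheets. They bind collagens, growth factors and cell surface receptors, integrins among them, and so adjust how firmly a cell holds to its matrix. In adult tissue their levels are low in most places and are known to go up around wounds, tumours and remodelling vessels, with fibroblasts, pericytes and endothelial cells as their usual sources. In islets the matrix is laid down mainly by the blood vessels, and endocrine cells meet it through receptors that contain integrin β1.

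RNA from islets was compared between 4 control libraries and 4 *Itgb1* mutant libraries. The mice were 6 weeks old on a C57BL/6 background, the controls are labelled wild-type, and the mutants are labelled Ngn3-Cre, itgb1-/-. In the mutants, called *Itgb1*ΔEndo/ΔEndo, a Cre driven by *Ngn3* deletes floxed alleles of *Itgb1*, the gene of integrin β1, in endocrine progenitors, so that fibroblasts, vessels and other cells that came along with the islets keep the gene. The islets were freed with collagenase and, by the study's methods, left overnight in medium to recover. Each library holds a pool of islets, and the labels leave unsaid whether libraries come from different animals. The p-values below therefore reflect variation among libraries, part of which may be technical.

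The libraries held 35.1 to 67.6 M counts. *Itgb1* was at 315 to 432 CPM (counts scaled to library size, here with TMM factors) in the controls and at 193 to 266 CPM in the mutants. The labelled tissue was checked by the summed level of 10 hormone and granule genes, which lay between 52900 and 298300 CPM in every library. Control 2, control 3 and mutant 3 stood apart with 62.2 to 67.6 M counts against 35.1 to 41 M in the other 5 libraries. Control 2 and control 3 also had the highest endocrine sums (185800 and 298300 CPM) and the highest sums of 10 acinar enzyme genes (3277 and 10040 CPM, against 29.2 to 721 CPM elsewhere). Control 3 and mutant 3 were the libraries with *Xist* (1125 and 1225 CPM, against at most 0.752 CPM elsewhere) and with no count of *Ddx3y*, which marks them as female. The differences of the 10 genes and of genes named from the lists below are therefore given over all 8 libraries and again within the 5 libraries under 50 M counts (controls 1 and 4, mutants 1, 2 and 4). The only contrast among the other 3 libraries is mutant 3 against controls 2 and 3, which has no replicate and gets no test.

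Between the genotypes, *Thbs2*, *Postn*, *Tnc*, *Tnxb* and *Sparc* were higher in every mutant library than in any control library, and *Sparcl1* was higher in every mutant than in controls 1, 2 and 4. *Thbs3* had a lower mean in the mutants, and *Thbs1*, *Thbs4* and *Tgfbi* overlapped widely. Groups that did not overlap in this way, with the mutants higher, were found for 5 of the 10 genes, where 4.4% of all genes tested behaved so, and for none of the 10 with the mutants lower, where the share was 3.8%. At an unadjusted p below 0.05 in edgeR's quasi-likelihood test, 5 of the 10 were higher (*Postn*, *Sparc*, *Sparcl1*, *Thbs2*, *Tnxb*) and 1 was lower (*Thbs3*), against 6.8% and 7.19% of all genes. Since the contrast was known when the genes were chosen, nothing is read from these shares. No gene of the 10, and 0% of all genes in either direction, passed an adjusted p below 0.05 with a fold change above 2 in that test. With DESeq2, *Postn*, *Thbs2* and *Tnxb* passed the same threshold (0.723% of all genes higher, 0.5% lower), and with edgeR's likelihood ratio test *Postn* and *Thbs2* did (0.407% higher, 0.19% lower). The median log2 fold change of the 10 genes was 1.09, and that of all genes tested was 0.0015. In bulk islets, more RNA per cell and more cells of the type that makes it cannot be told apart.

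**Figure D1:**
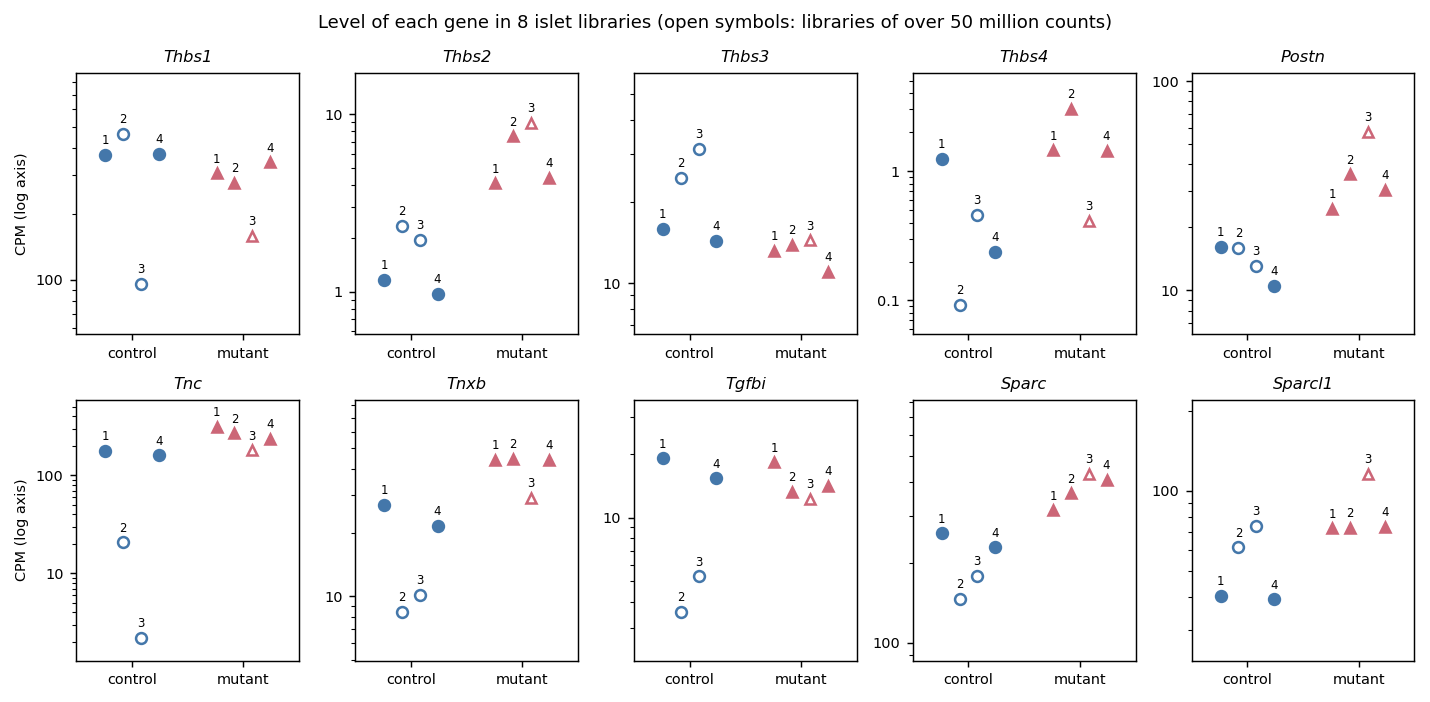
Level of each of the 10 genes in each library, in CPM on log axes that differ between panels. Circles are controls and triangles mutants, the number beside a symbol is the replicate, and open symbols are the libraries of over 50 M counts. The mutants of *Thbs2*, *Postn*, *Tnc*, *Tnxb* and *Sparc* lie above all of their controls, and *Tnc* spans from 2.19 to 176 CPM within the controls alone.

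Promoter windows from RefSeq (GRCm38.p6, 250 bases before to 50 bases after a transcription start) were found for 8 of the 10 genes, all except *Thbs1* and *Sparcl1*. For the 5 genes whose groups did not overlap, the window at the gene start of the count table is printed with the gene, and for *Tnc* also its other window, to show which of a few well-known short motifs these genes hold in common. The letters searched, on both strands, were TATATAA and TATAAA (forms of the TATA box, which overlap one another), TGANTCA (the AP-1 site), ACGTG and GCGTG (cores of the hypoxia response element), CAGAC (the Smad box) and GGAATG (the TEAD site). Of 32851 promoter windows of the same length, 3.24% hold TATATAA, 13.6% TATAAA, 7.81% TGANTCA, 19.6% ACGTG, 32.4% GCGTG, 49.6% CAGAC and 14.7% GGAATG. Capitals in the sequences mark every match, each sequence is read 5′ to 3′ on the gene's strand, and positions are counted from the transcription start. A Smad box printed as GTCTG is a match on the reverse strand, and one printed as CAGAC is a match on the gene's strand. A match describes the letters and says nothing of binding.

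The thrombospondins are large glycoproteins that bind calcium, proteoglycans and integrins. *Thbs1* and *Thbs2* form trimers, restrain angiogenesis through the receptor CD36 and bind CD47, and thrombospondin 1 is also an activator of latent TGF-β. *Thbs3* and *Thbs4* form pentamers and lack the domain that binds CD36.

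*Thbs2* (chromosome 17, 14665500 to 14694262, minus strand) showed the highest fold change of the 10 genes. Controls 1 to 4 were at 1.17, 2.36, 1.96 and 0.977 CPM, and mutants 1 to 4 at 4.07, 7.48, 8.94 and 4.36 CPM. Every mutant library was above every control, and within both groups the order followed the library set, with controls 2 and 3 above controls 1 and 4. The means were 1.61 ± 0.651 CPM in the controls and 6.21 ± 2.38 CPM in the mutants (SD, n = 4 each), a ratio of 3.85. The log2 fold change was 1.93 (SE 0.38, adjusted p = 0.233 with edgeR's quasi-likelihood test and 0.000501 with DESeq2), and it was 2.30 (SE 0.40) within the 5 libraries. Mutant 3 exceeded the mean of controls 2 and 3 by 2.04 on the log2 scale, so both library sets gave a value near 2. The counts behind these values were 41 to 127 in the controls and 180 to 605 in the mutants. Its promoter at chr17:14694213-14694512 (minus strand) holds TATAAA on the reverse strand at -126 and the Smad box at -66 and -43.
Thbs2: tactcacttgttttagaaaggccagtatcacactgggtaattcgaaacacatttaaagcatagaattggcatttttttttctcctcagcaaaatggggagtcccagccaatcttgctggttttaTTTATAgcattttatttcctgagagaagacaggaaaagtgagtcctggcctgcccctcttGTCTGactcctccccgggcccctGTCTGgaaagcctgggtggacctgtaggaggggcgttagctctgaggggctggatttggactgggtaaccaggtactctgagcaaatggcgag

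*Thbs1* (chromosome 2, 118111876 to 118127133, plus strand) was the most abundant thrombospondin in every library, with 61.2% to 93.1% of the summed thrombospondin CPM per kb in the controls and 81.5% to 92.7% in the mutants. The controls had 371, 462, 95.5 and 377 CPM (replicates 1 to 4), the mutants 306, 277, 159 and 343 CPM. The lowest library of each group was replicate 3, the groups overlapped, and the log2 fold change of -0.27 (SE 0.43, adjusted p = 0.786, edgeR) was smaller than its error. Within the 5 libraries both controls (371 and 377 CPM) were above all 3 mutants (277 to 343 CPM), with a log2 fold change of -0.28 (SE 0.10, adjusted p = 0.17). The ratio of *Thbs1* to *Thbs2* per kb was 322, 199, 49.4 and 390 in controls 1 to 4 and 76.1, 37.5, 18 and 79.7 in mutants 1 to 4. The 2 trimeric thrombospondins were thus present at very unequal levels in either genotype, and the ratios of controls 1, 2 and 4 were above all mutant ratios, with that of control 3 inside the range of the mutants.

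*Thbs3* (chromosome 3, 89215187 to 89226837, plus strand) was the only gene of the 10 at an unadjusted p below 0.05 with the mutants lower. In controls 1 to 4 there were 15.9, 24.4, 31.4 and 14.3 CPM of it, and in mutants 1 to 4 there were 13.1, 13.8, 14.4 and 11 CPM. The high values were those of controls 2 and 3, and mutant 3 was just above control 4. The log2 fold change of -0.72 (SE 0.25, adjusted p = 0.333, edgeR) became -0.26 (SE 0.13, adjusted p = 0.3) within the 5 libraries, where controls 2 and 3 are left out, and mutant 3 was below the mean of those controls by a log2 difference of -0.94. A stretch of 318 bases, 6.59% of the exonic bases of *Thbs3*, is also exon of *Mtx1* on the other strand, and the counting is not stated to use strand, so reads from it cannot be assigned to either gene. *Mtx1*, a gene of mitochondrial protein import, was at 17.2 to 22.1 CPM in the controls and 15.1 to 24.9 CPM in the mutants.

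*Thbs4* (chromosome 13, 92751586 to 92794818, minus strand), a thrombospondin of muscle, tendon and nerve, was the lowest of the 10 genes. Its counts were 48, 5, 24 and 10 in controls 1 to 4 and 64, 125, 28 and 60 in mutants 1 to 4, which made 0.0928 to 1.25 CPM and 0.414 to 3.01 CPM. Mutant 3 was below controls 1 and 3, the groups overlapped, and the log2 fold change of 1.66 (SE 0.77, adjusted p = 0.37, edgeR) ran from 1.12 to 2.55 when single libraries were left out. It was 1.42 (SE 0.67) within the 5 libraries, and mutant 3 exceeded controls 2 and 3 by 0.82 on the log2 scale.

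Periostin is secreted by fibroblasts and smooth muscle cells of growing or injured tissue, promotes collagen crosslinking and binds integrins of the αv kind. *Postn* (chromosome 3, 54361107 to 54391041, plus strand) had the tightest controls of the genes whose groups did not overlap. It stood at 16.1, 16.0, 13.1 and 10.5 CPM in the controls, replicates 1 to 4, against 24.4, 35.9, 57.5 and 30.3 CPM in the mutants. The lowest mutant was above the highest control, and mutant 3 was well above the other 3 mutants. The means were 13.9 ± 2.68 and 37.0 ± 14.4 CPM (SD, n = 4 each), a ratio of 2.66, with a log2 fold change of 1.41 (SE 0.27, adjusted p = 0.233 with edgeR's quasi-likelihood test and 0.000542 with DESeq2). Within the 5 libraries it was 1.18 (SE 0.24), and mutant 3 exceeded controls 2 and 3 by 1.99 on the log2 scale. The promoter at chr3:54360857-54361156 (plus strand) has TATATAA starting at -28, about where TATA boxes usually lie, with TATAAA overlapping it. A further RefSeq window of *Postn*, whose start lies 1840 bases away, holds the Smad box at -191 and no other motif of the list.
Postn: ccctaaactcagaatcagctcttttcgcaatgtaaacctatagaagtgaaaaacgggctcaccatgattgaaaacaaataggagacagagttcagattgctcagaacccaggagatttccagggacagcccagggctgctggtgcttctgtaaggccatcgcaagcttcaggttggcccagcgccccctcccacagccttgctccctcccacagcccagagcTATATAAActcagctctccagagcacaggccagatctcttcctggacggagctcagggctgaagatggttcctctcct

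Tenascins are large hexameric or trimeric glycoproteins with a modulating effect on adhesion to fibronectin. A further tenascin gene, *Tnr*, is outside the 10 genes, had a lower mean in the mutants and is given below. *Tnc*, tenascin C, is known from embryos, wounds and stem cell niches, while *Tnxb*, tenascin X, binds collagen fibrils in the connective tissue of adults. *Tnc* (chromosome 4, 63959785 to 64047015, minus strand) gave 176, 20.7, 2.19 and 160 CPM from control 1 through control 4, and 313, 268, 180 and 234 CPM from mutant 1 through mutant 4. Every mutant was above every control, mutant 3 exceeding control 1 by little, but the controls spanned 80.8-fold and the mutants 1.74-fold. The low values were those of controls 2 and 3, at 1115 and 115 counts. The log2 fold change was 1.47 (SE 0.99, adjusted p = 0.49, edgeR) over all 8 libraries and 0.69 (SE 0.13, adjusted p = 0.083) within the 5, a ratio of means of 1.61 there. Mutant 3 exceeded controls 2 and 3 by 4.72 on the log2 scale, so the size of the difference cannot be given by 1 number for this gene. RefSeq gives 2 windows, which overlap. The one at the gene start of the count table, chr4:64046966-64047265 (minus strand), has TATAAA at -126 and the Smad box at 10, with no TATATAA. The one whose start lies 79 bases downstream, chr4:64046887-64047186 (minus strand), has TATATAA at -29, TATAAA at -205, the Smad box at -70 and 40 and GCGTG on the reverse strand at 21.
Tnc at the gene start: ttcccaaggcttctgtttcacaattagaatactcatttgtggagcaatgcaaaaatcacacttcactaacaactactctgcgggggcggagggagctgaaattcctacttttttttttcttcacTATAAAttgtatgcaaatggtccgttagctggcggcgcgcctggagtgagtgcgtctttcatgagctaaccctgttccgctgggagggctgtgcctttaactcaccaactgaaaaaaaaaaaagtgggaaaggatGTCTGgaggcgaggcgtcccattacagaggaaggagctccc
Tnc downstream: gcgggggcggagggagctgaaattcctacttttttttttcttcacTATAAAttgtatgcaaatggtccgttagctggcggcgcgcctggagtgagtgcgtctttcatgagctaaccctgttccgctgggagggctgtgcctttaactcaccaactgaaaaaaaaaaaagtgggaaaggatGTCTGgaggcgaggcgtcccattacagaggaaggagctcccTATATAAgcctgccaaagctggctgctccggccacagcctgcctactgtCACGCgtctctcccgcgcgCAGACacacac

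*Tnxb* (chromosome 17, 34670535 to 34719815, plus strand) was measured at 27.1, 8.44, 10.1 and 21.6 CPM in the controls and 44.1, 44.8, 29.2 and 44.1 CPM in the mutants, each in the order of replicates 1 to 4. The groups did not overlap, controls 2 and 3 were the lowest libraries, and mutant 3 was the lowest mutant. The means were 16.8 ± 9.01 and 40.5 ± 7.59 CPM (SD, n = 4 each), with a log2 fold change of 1.27 (SE 0.37, adjusted p = 0.333 with edgeR's quasi-likelihood test and 0.0435 with DESeq2). Within the 5 libraries it was 0.86 (SE 0.11, adjusted p = 0.0633), and mutant 3 exceeded controls 2 and 3 by 1.65 on the log2 scale. The window at chr17:34670285-34670584 (plus strand) has the AP-1 letters as TGAGTCA at -55, the only match to them among the windows found, and the Smad box at -198 and -178.
Tnxb: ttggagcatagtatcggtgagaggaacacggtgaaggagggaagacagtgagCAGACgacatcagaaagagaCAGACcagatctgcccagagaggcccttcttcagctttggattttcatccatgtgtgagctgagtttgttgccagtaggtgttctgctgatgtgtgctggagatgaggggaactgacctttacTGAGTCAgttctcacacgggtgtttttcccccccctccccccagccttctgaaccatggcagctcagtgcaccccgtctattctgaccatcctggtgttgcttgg

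*Tgfbi* (chromosome 13, 56609603 to 56639339, plus strand) encodes a relative of periostin that is induced by TGF-β and binds collagens and integrins. Replicates 1 to 4 of the controls had 19.1, 3.58, 5.28 and 15.4 CPM, those of the mutants 18.3, 13.2, 12.2 and 14.1 CPM. Controls 2 and 3 were the lowest libraries and control 1 the highest, so that the mutants lay inside the range of the controls. The log2 fold change was 0.42 (SE 0.49, adjusted p = 0.689, edgeR) over 8 libraries, -0.18 (SE 0.18, adjusted p = 0.567) within the 5, and 1.48 for mutant 3 against controls 2 and 3, which gives no common direction.

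SPARC, also called osteonectin, binds collagen and calcium, loosens adhesion and is abundant in basement membranes of vessels. *Sparc* (chromosome 11, 55394159 to 55420080, minus strand) was the most abundant of the 10 genes per kb of gene length in 7 of 8 libraries. Levels of 257, 146, 178 and 228 CPM were found in controls 1 to 4, and of 313, 363, 430 and 408 CPM in mutants 1 to 4. The groups did not overlap and the spread within each was small, at 202 ± 49.9 CPM in the controls and 379 ± 51.6 CPM in the mutants (SD, n = 4 each), a ratio of 1.87. The log2 fold change was 0.91 (SE 0.19, adjusted p = 0.265 with edgeR's quasi-likelihood test and 0.00377 with DESeq2), 0.57 (SE 0.12, adjusted p = 0.101) within the 5 libraries and 1.42 for mutant 3 against controls 2 and 3. The window at chr11:55420031-55420330 (minus strand) holds no TATA letters and has the Smad box at -35 and 16.
Sparc: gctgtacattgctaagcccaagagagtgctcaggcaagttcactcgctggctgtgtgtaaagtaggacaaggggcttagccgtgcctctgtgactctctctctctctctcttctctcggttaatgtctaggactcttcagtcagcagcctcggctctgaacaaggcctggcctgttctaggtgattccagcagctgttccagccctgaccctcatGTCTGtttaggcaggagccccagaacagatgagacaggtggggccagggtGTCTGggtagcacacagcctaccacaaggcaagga

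*Sparcl1* (chromosome 5, 104079109 to 104114088, minus strand), also called hevin, is the closest relative of *Sparc* and is known from vessels, glia and mural cells. From replicate 1 to replicate 4, the controls were at 40.4, 61.3, 73.7 and 39.1 CPM and the mutants at 72.3, 72.6, 116 and 73.5 CPM. Control 3 was just above mutants 1, 2 and 4, which is the overlap of the groups, while within each library set every mutant was above every control. The log2 fold change was 0.64 (SE 0.25, adjusted p = 0.335, edgeR) over all 8 libraries. Within the 5 libraries it was 0.87 (SE 0.06, adjusted p = 0.0163), and with library set as a term over all 8 it was 0.84 (SE 0.08, adjusted p = 0.0333). In both of these fits *Sparcl1* was the only gene of the 10 with an adjusted p below 0.05, which 0.077% of all genes had with the mutants higher within the 5 libraries and 0.0328% with the term. Its fold was below 2 in both library sets, with a ratio of means of 1.83 within the 5 libraries and 1.72 for mutant 3 over controls 2 and 3.

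**Figure D2:**
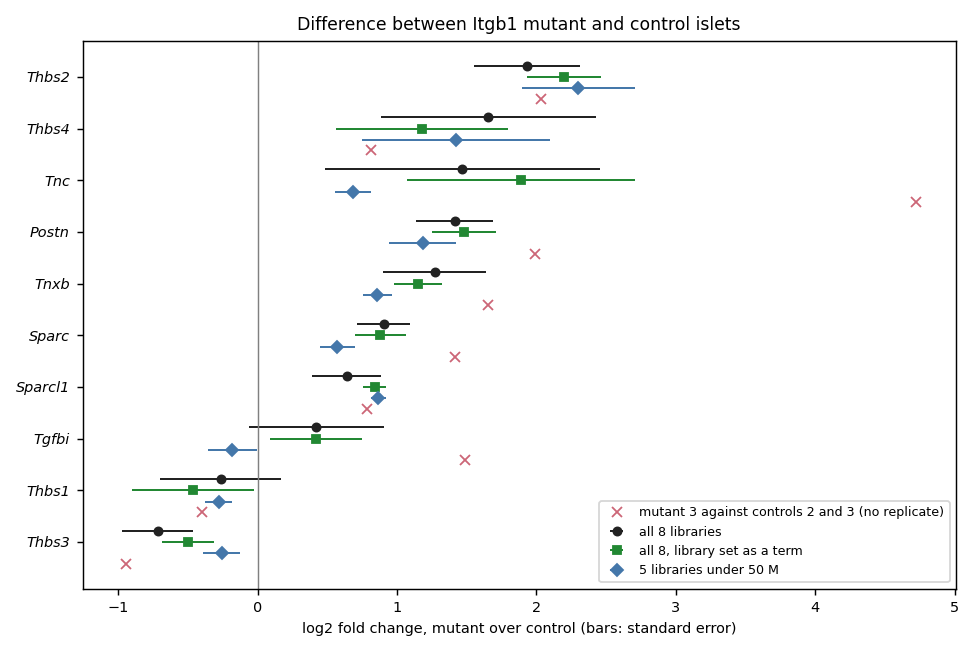
Log2 fold change of the mutants over the controls for each gene, from all 8 libraries (circles), from all 8 with library set as a term (squares) and from the 5 libraries under 50 M counts (diamonds), with bars for the standard error, and for mutant 3 against controls 2 and 3 (crosses, no replicate). *Thbs2* lies near 2 in each, whereas *Tnc* runs from 0.69 to 4.72 and *Tgfbi* from -0.18 to 1.48.

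Within the 5 libraries 6 of the 10 genes were higher at an unadjusted p below 0.05 (*Postn*, *Sparc*, *Sparcl1*, *Thbs2*, *Tnc*, *Tnxb*), where 12.6% of all genes were, and 1 was lower (*Thbs1*), where 10.7% were. The order of the differences was *Thbs2*, *Postn*, *Sparcl1*, *Tnxb*, *Tnc* and *Sparc*, from 2.30 to 0.57 on the log2 scale.

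Compared per kb of gene length, the order of the 10 genes in the controls was *Sparc* (76.8 ± 19.0 CPM per kb, SD, n = 4), *Thbs1* (56.0 ± 27.4), *Sparcl1* (17.3 ± 5.41), *Tnc* (12.0 ± 12.2), *Thbs3* (6.80 ± 2.52), *Postn* (4.25 ± 0.819), *Tgfbi* (4.04 ± 2.82), *Tnxb* (1.57 ± 0.841), *Thbs2* (0.274 ± 0.110) and *Thbs4* (0.16 ± 0.162). In the mutants it was *Sparc* (143.9 ± 19.6 CPM per kb), *Thbs1* (46.6 ± 13.7), *Tnc* (33.3 ± 7.5), *Sparcl1* (26.9 ± 6.96), *Postn* (11.3 ± 4.41), *Tgfbi* (5.39 ± 0.992), *Thbs3* (4.14 ± 0.471), *Tnxb* (3.78 ± 0.708), *Thbs2* (1.05 ± 0.404) and *Thbs4* (0.495 ± 0.337). Both ends of the order were the same in both genotypes, and *Thbs3* was the gene that moved furthest, from place 5 to place 7. Neighbours were not always separable: *Sparcl1* exceeded *Tnc* in 2 of 4 controls, *Tnc* exceeded *Thbs3* in 2, and *Postn* exceeded *Tgfbi* in 2. In the mutants every gene exceeded the next in order in 4 of 4 libraries, except that *Tnc* exceeded *Sparcl1* and *Thbs3* exceeded *Tnxb* in 3 of 4, the latter by less than 1 SD. *Sparc* made up 32.1% to 54% of the summed CPM per kb of the 10 genes in the controls and 45.7% to 57.7% in the mutants, and *Thbs1* 13.1% to 46% and 9.64% to 20.2%. The sum itself was 218.2, 172.3, 125.5 and 201 CPM per kb in controls 1 to 4 and 260.4, 271.3, 283.2 and 292.2 in mutants 1 to 4.

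**Figure D3:**
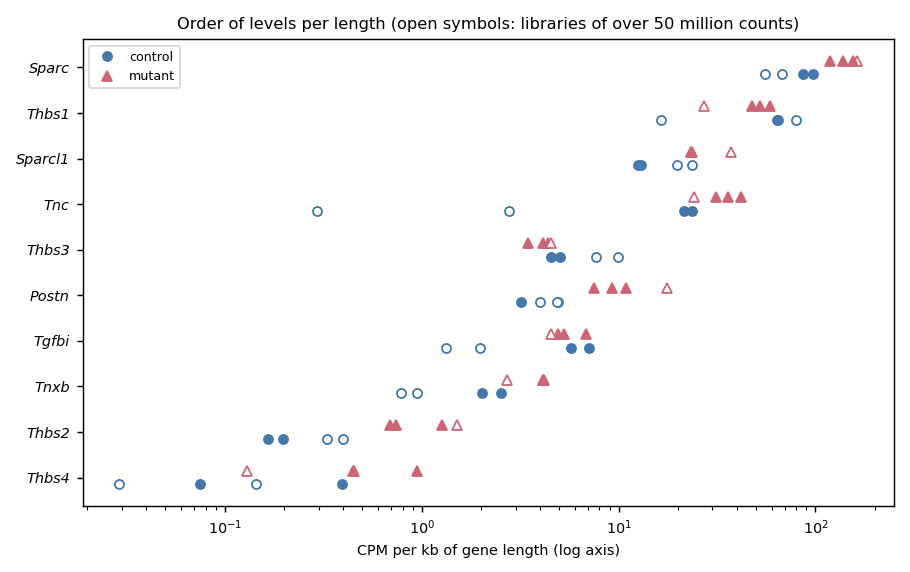
CPM per kb of gene length on a log axis, with 1 symbol for each library, circles for controls, triangles for mutants and open symbols for libraries of over 50 M counts. The genes run from *Sparc*, at 76.8 in the controls and 143.9 in the mutants on average, down to *Thbs4* at 0.16 and 0.495.

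The pairs of relatives did not keep a fixed ratio. *Sparc* exceeded *Sparcl1* per kb 7.51-fold and 6.87-fold in controls 1 and 4, 2.80-fold and 2.85-fold in controls 2 and 3, and 4.38-fold to 6.55-fold in the mutants. *Tnc* exceeded *Tnxb* per kb 9.35-fold, 3.51-fold and 10.6-fold in controls 1, 2 and 4 and 7.62-fold to 10.2-fold in the mutants, and it was below *Tnxb* in control 3, at a ratio of 0.309.

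The median within-group SD of log2 CPM was 0.594 over the 10 genes and 0.314 over all genes tested, with *Sparc* (0.30) below the latter. The extremes were the controls of *Tnc* (SD 2.98, against 0.34 in its mutants) and the mutants of *Thbs3* (0.17). Controls 2 and 3 were both above controls 1 and 4 for *Thbs2*, *Thbs3* and *Sparcl1* and both below them for *Tnc*, *Tnxb*, *Tgfbi* and *Sparc*, which makes 70% of the 10 genes, where 67.1% of all genes tested were so split. Mutant 3 was the highest mutant for *Thbs2*, *Thbs3*, *Postn*, *Sparc* and *Sparcl1* and the lowest for *Thbs1*, *Thbs4*, *Tnc*, *Tnxb* and *Tgfbi*, 100% of the 10 genes against 79.3% of all genes tested. The same split of libraries is thus seen over the whole table. The part of acinar RNA, sex or depth in it was not tested.

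**Figure D4:**
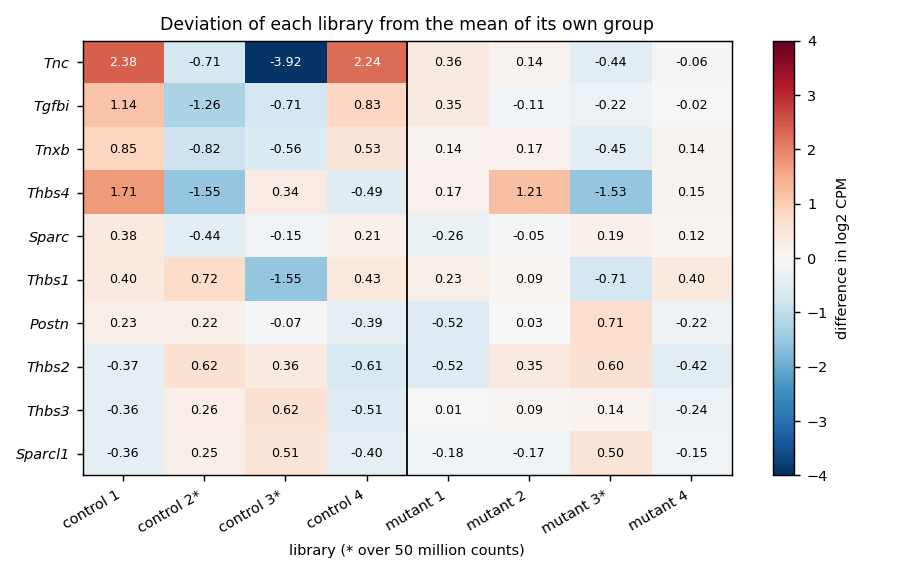
Deviation of each library from the mean log2 CPM of its own genotype, for each gene, with red above and blue below that mean and libraries of over 50 M counts marked by an asterisk. *Tnc*, *Tgfbi* and *Tnxb* are below the mean in controls 2 and 3, and *Thbs2*, *Thbs3* and *Sparcl1* are above it there.

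For 9 of the genes, the other gene tested with the most similar pattern is given, found as the highest Pearson correlation of log2 CPM over the 8 libraries, given as a description since these libraries share the same split and the best of all other genes tested is reported. *Sparc* was nearest to *Col1a1* (r = 0.994), a fibrillar collagen gene. *Thbs3* was nearest to *Zscan18* (r = 0.997), *Tnc* to the chemokine receptor gene *Cxcr4* (0.99), *Tnxb* to the ephrin receptor gene *Epha3* (0.99) and *Tgfbi* to *Mtr*, methionine synthase (0.99). *Thbs1* was nearest to *Abca6* (0.98), *Sparcl1* to *Tomm6* (0.98), *Thbs2* to the tubulin gene *Tuba1b* (0.97) and *Thbs4* to the potassium channel gene *Kcna1* (0.97). Of these 9 neighbours *Col1a1* alone belongs to the matrix genes listed for this comparison.

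Among 25 further matricellular genes, 23 had enough counts. At an unadjusted p below 0.05, 7 of them were higher and 3 lower (6.8% and 7.19% of all genes), and with DESeq2 at the called threshold 4 were higher and 1 lower (0.723% and 0.5% of all genes). The median log2 fold change was 0.69 over all 8 libraries and 0.77 within the 5. In what follows the first value in parentheses is the log2 fold change over 8 libraries and the second that within the 5. *Ecm1*, a secreted binding partner of perlecan and fibulins, had the smallest p, with 7.75 to 15.9 CPM in the controls and 24.3 to 37.9 CPM in the mutants (1.44, SE 0.25, and 1.1, SE 0.22). *Wisp2*, a member of the CCN family, was at 0.0928 to 0.234 CPM in the controls and 0.520 to 2.70 CPM in the mutants (3.02, SE 0.58, and 2.24, SE 0.66), on very few counts in the controls. *Efemp2*, which helps to assemble elastic fibres, was at 20.4 to 26.9 and 30.8 to 44.5 CPM (0.69, SE 0.14, and 0.61, SE 0.17). *Spock3*, a proteoglycan gene that shares a calcium-binding domain with SPARC, went the other way, with 2.74 to 7.53 CPM in the controls and 1.08 to 2.47 CPM in the mutants (-1.75, SE 0.40, and -1.37, SE 0.26). The adjusted p of these 4 genes in edgeR's quasi-likelihood test lay between 0.219 and 0.301. Of the 23 genes, 5 were free of overlap with the mutants higher and 1 with the mutants lower (4.4% and 3.8% of all genes). The 4 genes were among these, but they were chosen by smallest p, so nothing is read from that. The tenascin gene *Tnr* was among the 3 genes that were lower at an unadjusted p below 0.05. It was at 91.7 to 217 CPM in the controls and 61.6 to 98.6 CPM in the mutants (-0.87, SE 0.30, and -0.29, SE 0.21), with overlap of the groups.

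Of 20 receptors and binding partners at the cell surface, 7 had an unadjusted p below 0.05 with the mutants higher and 2 with the mutants lower, where 6.8% and 7.19% of all genes did. The median log2 fold change was 0.40 over all 8 libraries and 0.34 within the 5. Of the 2 lower genes, the one with the smallest p was *Itgb1* (-0.75, SE 0.15, and -0.57, SE 0.14). It is the deleted gene, so its place in that count was set by the design. *Lrp1*, the endocytic receptor that clears thrombospondins, was at 77.6 to 189 CPM in the controls and 252 to 325 CPM in the mutants (0.98, SE 0.25, and 0.69, SE 0.12). *Sdc1*, a syndecan that binds thrombospondin and tenascin, was at 3.29 to 21.3 and 33.6 to 47.3 CPM (1.84, SE 0.57, and 1.01, SE 0.16), its lowest libraries being controls 2 and 3. *Itga9*, the α-chain of a tenascin receptor that pairs with integrin β1, was at 7.66 to 16.2 and 16.6 to 21.8 CPM (0.60, SE 0.23, and 0.40, SE 0.16). The groups overlapped for the thrombospondin receptors *Cd47* (0.45, SE 0.32, and 0.55, SE 0.14) and *Cd36*, whose sign differed between the 8 libraries (0.35, SE 0.59) and the 5 (-0.87, SE 0.25).

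Of 17 ligands, activators and targets of TGF-β, a growth factor under whose control several matricellular genes stand, 5 were higher and none lower at an unadjusted p below 0.05 (6.8% and 7.19% of all genes), and with DESeq2 at the called threshold 3 were higher (0.723% of all genes). The median log2 fold change was 0.48 over all 8 libraries and 0.54 within the 5. *Tgfb1* was at 11.6 to 24.3 CPM in the controls and 33.6 to 50.2 CPM in the mutants (1.11, SE 0.26, and 0.60, SE 0.09), *Fn1*, fibronectin, at 7.45 to 37.3 and 51.8 to 94.5 CPM (2.06, SE 0.51, and 1.27, SE 0.40), and *Col1a1* at 26.6 to 91.5 and 130.5 to 226 CPM (1.80, SE 0.35, and 1.26, SE 0.29). *Tgfbr2*, a receptor of TGF-β, was at 12.5 to 30.8 and 29.6 to 49.5 CPM (0.86, SE 0.30, and 0.56, SE 0.19). *Smad7* and *Ctgf*, common targets of the pathway, did not reach an unadjusted p below 0.05 over 8 libraries, with 0.48 (SE 0.24, and 0.29, SE 0.08) for the former and 0.06 (SE 0.32, and 0.34, SE 0.15) for the latter.

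Markers of the cells that usually make these proteins were read in the same libraries. Of 12 fibroblast, stellate cell and pericyte markers 11 had a higher mean in the mutants (50.2% of all genes), 10 were higher at an unadjusted p below 0.05 (6.8% of all genes) and 6 with DESeq2 at the called threshold (0.723% of all genes). Their summed level was 386 to 527 CPM in the controls and 835 to 973 CPM in the mutants, without overlap. The marker with a lower mean was *Rgs5*, at 97.5 to 254 CPM in the controls and 53.2 to 193 CPM in the mutants. For *Des* and *Acta2*, both among the 10 higher markers, mutant 1 stood apart at 47.1 and 63.8 CPM. The other mutants were at 7.57 to 8.35 CPM for *Des* and 4.22 to 8.35 CPM for *Acta2*. None of the 12 was at 0 in any library, and the lowest, *Acta2*, was at 1.001 to 9.16 CPM in the controls. Of 10 endothelial markers none was higher and 1 was lower at an unadjusted p below 0.05 (6.8% and 7.19% of all genes). Within the 5 libraries 2 were higher and 3 lower at such a p (12.6% and 10.7% of all genes). Their sum over all 8 libraries was 824 to 953 CPM in the controls and 791 to 949 CPM in the mutants. The sum of 8 Schwann cell markers was 33.2 to 53.9 and 53.7 to 81.6 CPM, that of 8 leukocyte markers 22.7 to 31.2 and 31.3 to 60.1 CPM (with no count of *Cd3e* in at least 1 library), that of 6 ductal markers 304.5 to 1609 and 1060 to 2944 CPM, and that of platelet and blood markers 10.3 to 14.4 and 3.59 to 20.5 CPM (*Ppbp* and *Gp9* without a count in at least 1 library). *Spp1*, at 51.3 to 1073 CPM in the controls and 302 to 2262 CPM in the mutants, is in the ductal list and among the further matricellular genes. *Ctgf* is shared by those matricellular genes and the TGF-β list. *Col1a1* stands both in the fibroblast, stellate cell and pericyte list and in that of TGF-β. The summed markers of the former list thus were higher in every mutant library, beside *Thbs2*, *Postn*, *Tnc*, *Tnxb* and *Sparc*. The median log2 fold change of that list was 1.36 against 1.09 for the 10 genes, and 1.14 against 0.77 within the 5 libraries. The part of these markers in the result was not tested, and the number of such cells per library and their RNA content cannot be told apart.

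**Figure D5:**
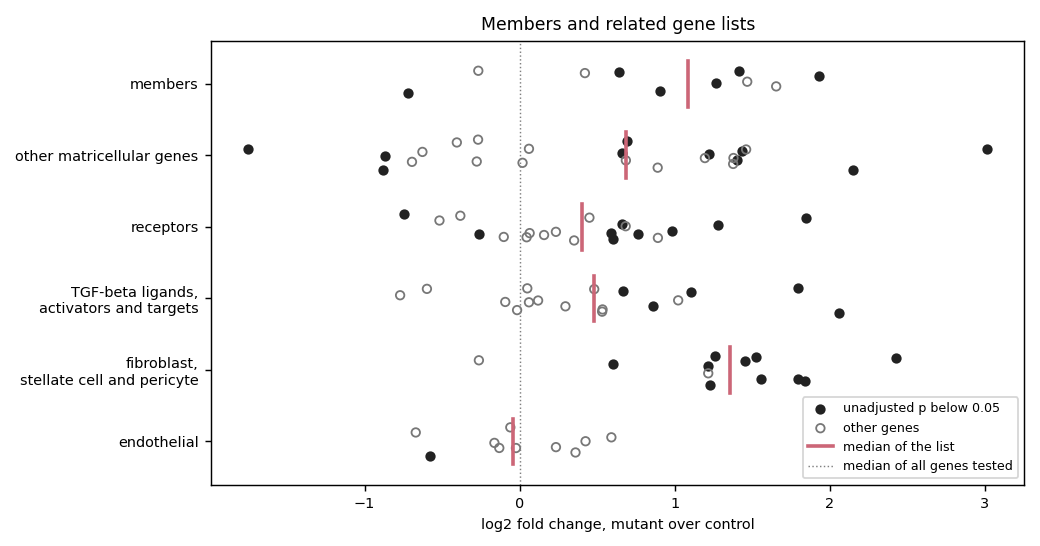
Log2 fold change of the mutants over the controls for the 10 genes and for 5 related lists, with 1 point for each gene, filled where the unadjusted p is below 0.05, a red bar for the median of the list and a dotted line for the median of all genes tested. The fibroblast, stellate cell and pericyte list has its median at 1.36 and the endothelial list at -0.04.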

How the data were processed

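Total RNA from islets was sequenced in 8 libraries after ribosomal RNA removal, 4 per genotype. The authors deposited raw counts per gene, made by trimming, STAR alignment to mm10 (GRCm38) and featureCounts at default parameters, which the submitters' processing notes name without versions. The deposited table also gives each gene's position and its length, used here for CPM per kb. A deposited table of the authors' own comparison (log2 fold changes, p-values, FDR, CPM) was not used.

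From the counts, edgeR 4.0.16 in R 4.3.3 was run with TMM factors, its low count filter (15233 of 24091 genes kept), the quasi-likelihood test of genotype without further terms, and p-values adjusted by Benjamini-Hochberg over all genes tested. A gene was called where its fold change was above 2 and its adjusted p under 0.05. The study corrected for batches that the sources used here do not name, so library set (total over or under 50 M counts) stands in as an alternative. SE is the log2 fold change over the square root of F. Replicates were grouped by the titles, and no label says that a number pairs libraries. DESeq2 1.42.0, the likelihood ratio test, the older quasi-likelihood form, RLE factors, total counts only, no filter, a replicate block, the 5 libraries and leaving out each library were alternatives. The tests were tested on simulated data. A floor of 3 counts is 0.0443 to 0.0778 CPM, depending on the library, and covers counting error only.

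Genes named are the 10 genes, the 4 with the smallest p of each of 3 related lists, *Itgb1*, a gene whose exons overlap 1 of the 10, and for each of the 10 the most correlated other gene. *Tnr*, *Cd36*, *Cd47*, *Smad7*, *Ctgf*, *Acta2*, *Des*, *Rgs5*, *Cd3e*, *Ppbp*, *Gp9*, *Xist* and *Ddx3y* fall outside that rule and were named after their values were seen. Single-gene results of some genes are not reported here. The 10 genes and all lists were chosen with earlier results of these data known. Promoters are from RefSeq on GRCm38.p6.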

Additional observations from a re-analysis of the deposited data

Results flagged for a closer look

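In groups of 4 libraries, a library was picked out when its gap to the nearest other library, over the range of the group, passed the 95% critical value of Dixon's test. Of 62 groups (the 10 genes and other genes named by the rule above, in each genotype) 3 were picked out, and chance picks out about 1 in 20. *Tnxb* in mutant 3 was at 29.2 CPM, with the other mutants at 44.1 to 44.8 CPM (ratio 0.953). *Sparcl1* in mutant 3 was at 116 CPM, with the other mutants at 72.3 to 73.5 CPM (ratio 0.973). *Zscan18*, the gene most similar to *Thbs3*, was at 3.56 CPM in mutant 4 and at 4.7 to 4.91 CPM in the other mutants (ratio 0.848). Without mutant 3 the log2 fold change was 1.4 for *Tnxb* and 0.44 for *Sparcl1*.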

How the results depend on the processing

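Over all genes, where edgeR's quasi-likelihood test called none, DESeq2 called 186 (110 higher, 76 lower), the likelihood ratio test 91 (62 higher, 29 lower), a library set term 3 (all higher) and the 5 libraries alone 10 (7 higher, 3 lower). Of the 10 genes, 3 were called with DESeq2 and 2 with the likelihood ratio test. Leaving out each library in turn gave 0 called genes every time. At an unadjusted p below 0.05 it gave 5 to 6 of the 10 genes and 9 to 14 of the other matricellular genes. Of the latter, 10 had such a p over all 8 libraries. The share of all genes at such a p ran from 3.78% to 8.95% with the mutants higher and from 3.91% to 10.2% with the mutants lower, so nothing is read from these counts. Within the 5 libraries *Tgfbi* (-0.18) and *Mtr* (-0.17) changed sign on the log2 scale, and with total counts only *Mtx1* did (0.077). None of these was called. Total counts only also moved the median log2 fold change of all genes to 0.15 and the genes at an unadjusted p below 0.05 to 1154 higher and 542 lower, against 1036 and 1096 with TMM factors. Of 170 values of the 10 genes under alternatives 164 kept their sign and their side of the threshold. The replicate block called 0 genes, left 6 of the 10 genes at an unadjusted p below 0.05 and gave 1600 genes higher and 1182 lower. Same-numbered libraries correlated at -0.0127 to 0.457 in their deviations, with 3 of 4 pairs at 0.254 or more, and 6 of 8 libraries correlated best with their own number. This is a hint of pairing from the data, but 1 pair is below 0.1 and no label ties a number to an animal, litter or day. *Tnc* had the widest range, from 0.69 to 2.66. *Thbs4* had the fewest counts (5 to 125), and a missed threshold does not show that levels were equal.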
